A study of Mus musculus with 2 samples.

Results

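The potassium channel genes Kcnq5, Kcnb2, Dpp10, Dpp6, Kcnd2, Kcnd3, Kcnip4, Kcnma1 and Kcnk2 were followed through the nuclei of the mouse stria vascularis, the epithelium of the cochlear lateral wall that keeps the endolymph rich in potassium. These 9 of the 48816 genes in the matrices were taken by symbol, and they belong to a list of 85 pore-forming and auxiliary genes of voltage-gated, calcium-activated and tandem pore domain potassium channels. They were chosen with their values in these nuclei already known, so their levels in spindle and root nuclei are given as a description and support nothing. The stria vascularis of CBA/J mice aged P30 (postnatal day 30) had been dissected and pooled, and no genotype beyond the strain and no drug treatment was given in the labels. The MethFix dataset came from nuclei of 5 to 6 mice that were fixed in methanol after isolation, and the RNAlater dataset from nuclei isolated after the tissue of 10 mice had been held overnight in RNAlater, by the labels' numbers (the study's methods give fewer mice for RNAlater). Each preparation was deposited as a single droplet library, so no comparison had replicates and none was tested.

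Voltage-gated potassium channels open when the membrane is depolarised and are built from pore subunits that meet around a central pathway. Kcnq5 encodes a Kv7 pore subunit whose slow current acts near rest, Kcnb2 a Kv2 subunit of delayed rectifier channels, and Kcnd2 and Kcnd3 the Kv4 subunits of fast A-type channels. Kv4 pores are assembled with the single-pass proteins encoded by Dpp6 and Dpp10, which bring them to the membrane and speed their gating, and with cytoplasmic calcium-binding proteins such as Kcnip4. Kcnma1 encodes the pore of the large-conductance BK channel, opened by voltage and calcium together, and Kcnk2 encodes TREK-1, a tandem pore domain channel that carries background current and responds to stretch and lipids. In the stria, potassium handling by marginal and intermediate cells underlies the endocochlear potential, and spindle cells and root cells lie at the edges of the epithelium.

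The datasets were not separate samplings of nuclei. In all, 3323 barcodes occurred in both matrices, or 70.0% of all 4748 in MethFix and 85.9% of all 3868 in RNAlater. After filtering, 3369 MethFix nuclei (median 3494 UMIs, range 501 to 7999) and 2311 RNAlater nuclei (median 4702 UMIs, range 506 to 7997) were left, of which 2257 barcodes were kept in both. In those barcodes 88.8% of the MethFix UMIs were also present, gene by gene, in RNAlater, so both datasets were counted as 1 sample. The labels give each dataset its own number of mice and its own preparation, so the origin of a shared nucleus cannot be told. A value alike in both datasets is therefore not a repeat. Values are given for each dataset. Unshared MethFix nuclei are given apart only for Kcnq5 and Dpp10 in spindle, Kcnip4 in root and Kcnma1 in marginal nuclei. Levels are given as CPM, the per-million share of a gene's UMIs among all UMIs of a class. Exact 95% intervals stand in parentheses and cover counting error only.

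Nuclei were assigned to classes rebuilt from marker genes, so a class here need not hold the same nuclei as the study's own. Spindle nuclei (97 MethFix, 58 of them with a shared barcode, and 55 RNAlater, 53 shared) carried Anxa1 at 2450 CPM in MethFix and 1994 CPM in RNAlater, against 24.4 and 23.0 CPM in all other nuclei, and Il1rapl2 at 2165 and 2474 CPM against 10.0 and 13.7 CPM. The study also saw Anxa1 RNA in surface cells of the spiral prominence, for which it found no separate cluster. Whether the spindle class here holds such cells was not tested. Root nuclei (72 and 69, with 68 and 67 shared) carried Epyc at 802 and 711 CPM against 3.97 and 3.40 CPM, Lgr5 at 720 and 762 CPM against 3.13 and 3.01 CPM, and Ceacam16 at 1472 and 1223 CPM against 37.6 and 43.9 CPM. Marginal (1104 and 673), intermediate (850 and 522) and basal nuclei (748 and 604) formed the bulk of the epithelium, and Reissner's membrane (155 and 156) and osteoblast nuclei (76 and 57) came from beside it. The melanocyte marker Pmel was nearly absent from intermediate nuclei, with 7 UMIs in MethFix and 2 in RNAlater, whereas Dct and Tyr were abundant there. Clusters that did not meet every condition for a name, some of them with a high score for a marker list, were left unnamed and are called by a leading gene.

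Each member spans a long stretch of the genome. In GRCm38 with the GENCODE M21 annotation the members' median span was 563.54 kb, against 27.1 kb for the genes tested and 21.4 kb for the other 76 listed channel genes, and at least 92.6% of tested genes were shorter than any member. Kcnb2 (1:15287254-15723750, plus strand), Kcnq5 (1:21398403-21961942, minus), Dpp10 (1:123321471-124045559, minus) and Kcnk2 (1:189207930-189402273, minus) lie on chromosome 1. Kcnd3 (3:105452330-105674002, plus), Kcnip4 (5:48389502-49524907, minus), Dpp6 (5:26817203-27727505, plus), Kcnd2 (6:21215503-21729805, plus) and Kcnma1 (14:23289431-24014491, minus) lie elsewhere. Exons covered from 0.319% of the span for Kcnip4 to 4.32% for Kcnd3, and nuclear libraries count intronic as well as exonic reads where the counting reference allows it. Kcnip4 overlaps the coding gene 5730480H06Rik and Dpp6 overlaps Speer4b on the other strand.

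Promoter windows of 250 bases before the RefSeq start are shown for the pair of members highest in spindle nuclei and for the member that led in marginal nuclei, on the gene's strand, with the letters GGGCGG or their complement CCGCCC in capitals. The Dpp10 window is chr1:124045560-124045809, the Kcnq5 window, at the start that adjoins the GENCODE gene end, is chr1:21961943-21962192, and the Kcnma1 window, inside the GENCODE span, is chr14:24004206-24004455, all on the minus strand of GRCm38.p6.
Dpp10: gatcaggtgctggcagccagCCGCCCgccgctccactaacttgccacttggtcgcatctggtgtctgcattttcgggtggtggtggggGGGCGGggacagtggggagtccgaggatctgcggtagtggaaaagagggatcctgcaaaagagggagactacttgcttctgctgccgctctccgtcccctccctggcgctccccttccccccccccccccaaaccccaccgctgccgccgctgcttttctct
Kcnq5: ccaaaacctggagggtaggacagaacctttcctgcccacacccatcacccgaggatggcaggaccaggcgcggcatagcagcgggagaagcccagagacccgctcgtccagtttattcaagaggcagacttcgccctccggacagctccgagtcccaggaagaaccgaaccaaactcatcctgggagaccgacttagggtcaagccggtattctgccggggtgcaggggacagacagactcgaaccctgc
Kcnma1: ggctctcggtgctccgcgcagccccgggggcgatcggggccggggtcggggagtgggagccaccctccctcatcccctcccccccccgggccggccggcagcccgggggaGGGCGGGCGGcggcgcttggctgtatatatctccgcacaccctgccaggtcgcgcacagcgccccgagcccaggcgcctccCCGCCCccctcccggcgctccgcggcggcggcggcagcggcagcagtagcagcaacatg
The Kcnma1 window was the richest in CpG of the 3, with 31 CpG, more than in 94.8% of all 32851 windows, and 79.2% GC. The medians of all windows were 6 CpG and 52.4% GC. The Dpp10 window held 14 CpG at 65.2% GC and the Kcnq5 window 14 CpG at 60.8% GC. The letters GGGCGG were found 2 times for Dpp10, 3 times for Kcnma1 (of which 2 overlap) and not for Kcnq5, on either strand, and in 32.7% of all windows. None of these windows held the AP-1 letters TGAGTCA (4.46% of all windows), the TATA box letters TATAAA (12.4%) or the E-box letters CACGTG (6.02%), each searched on both strands.

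**Figure D1:**
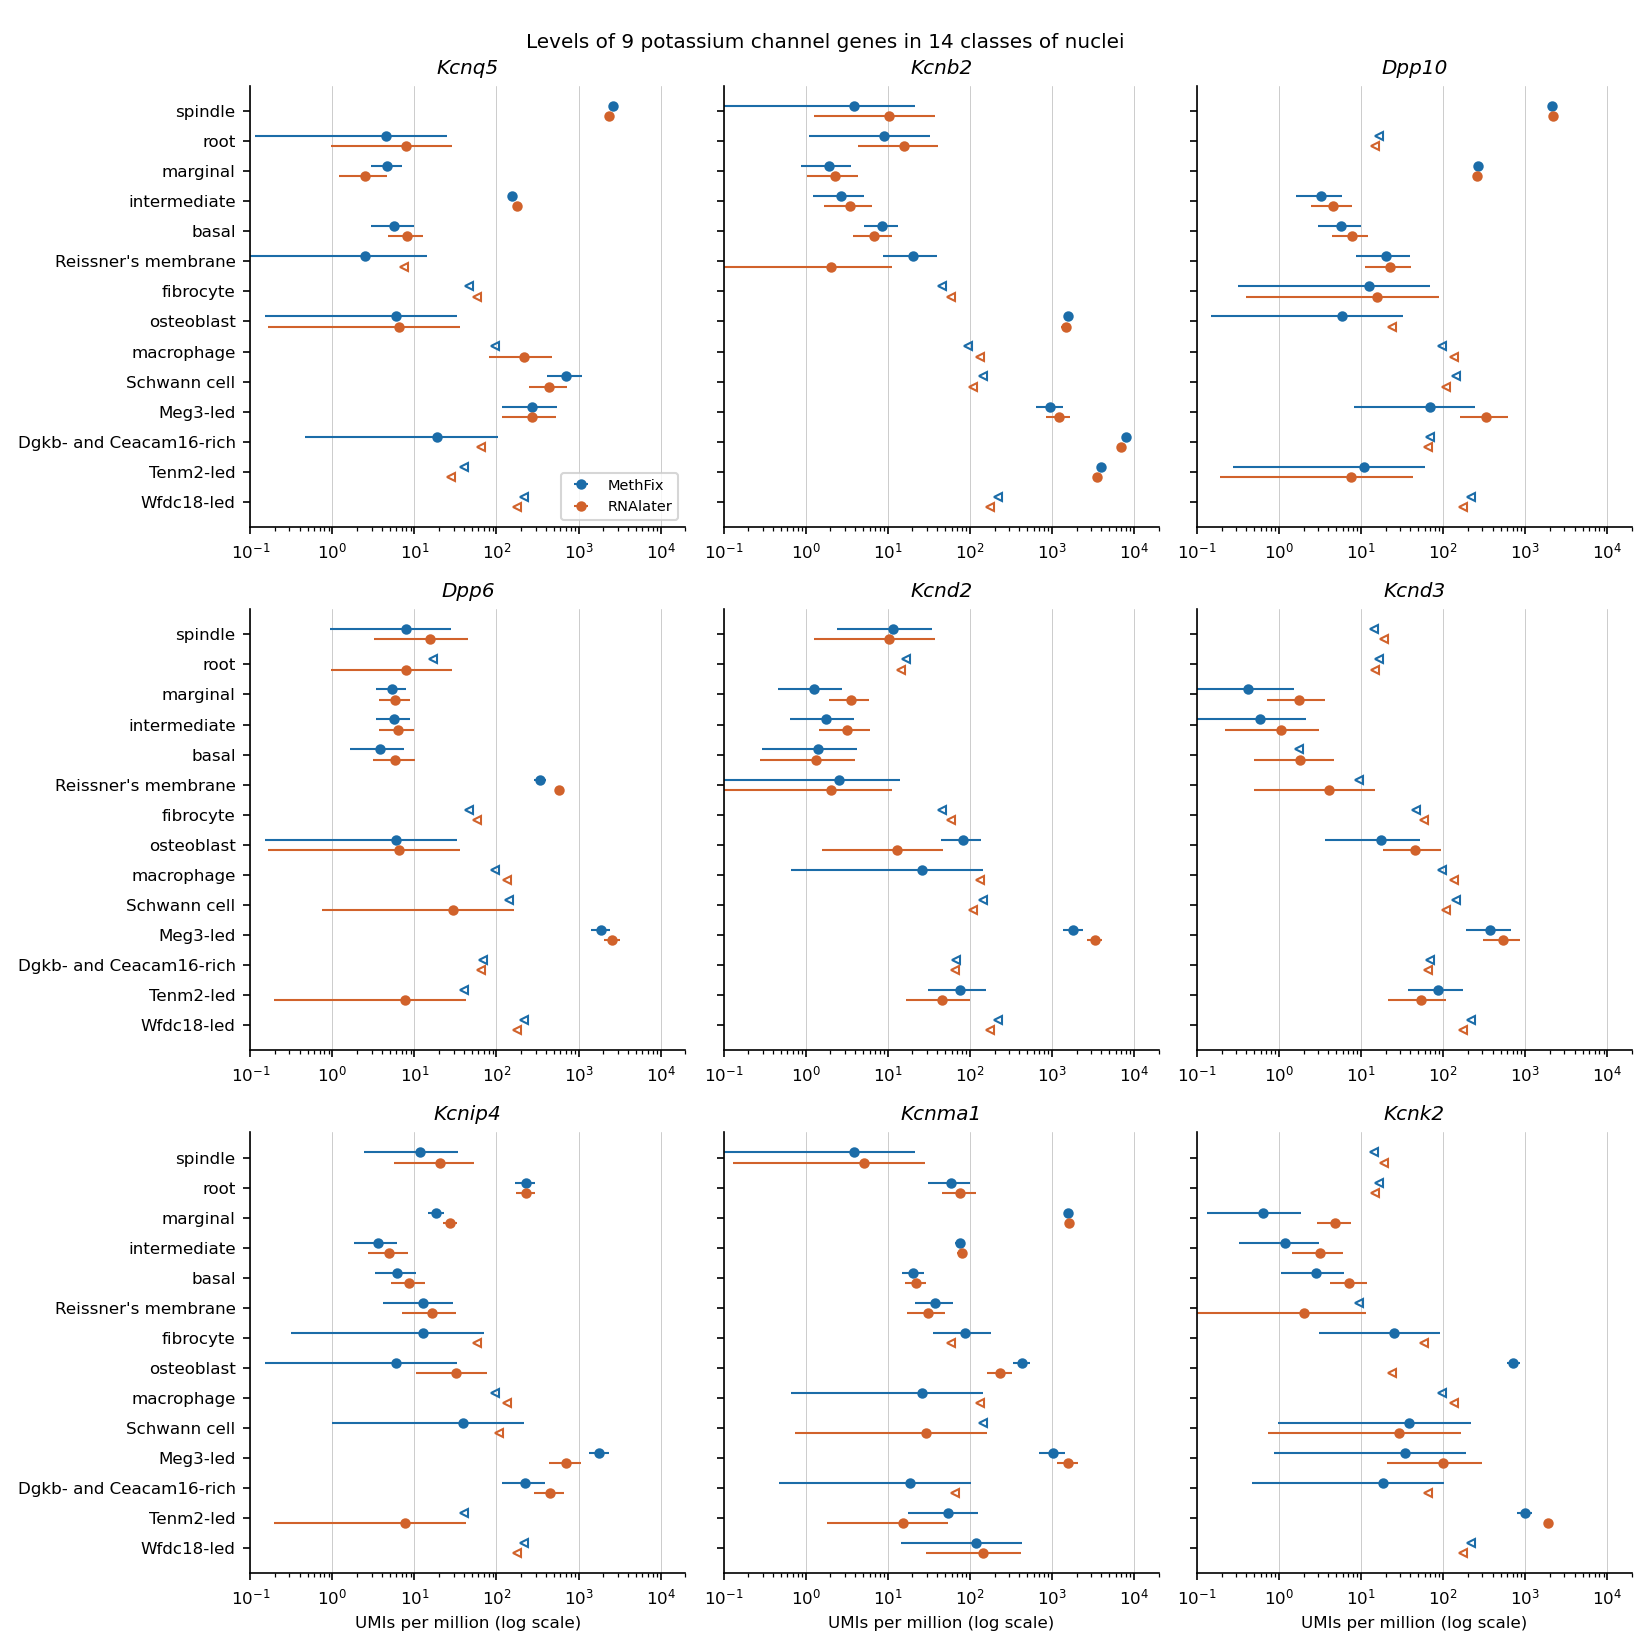
Level of each of the 9 genes (CPM, log axis) in the 14 classes with at least 10 nuclei in both datasets, MethFix in blue and RNAlater in orange, with exact 95% intervals; open triangles are upper limits where a class held 0 UMIs. Kcnq5 and Dpp10 stood highest in spindle nuclei, and Kcnma1 was 1571 and 1638 CPM in marginal nuclei.

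Kcnq5 stood highest in spindle nuclei, with a lower level in the far more numerous intermediate nuclei. Spindle nuclei held 51.5% of its UMIs in MethFix and 44.3% in RNAlater, and intermediate nuclei 39.7% and 49.5%. In spindle nuclei it reached 2622 CPM (2428 to 2829) in MethFix and 2319 CPM (2110 to 2544) in RNAlater, and was found in 60 of 97 nuclei, 61.9% (51.4 to 71.5), and in 31 of 55 nuclei, 56.4% (42.3 to 69.7). Intermediate nuclei, the melanocyte-derived cells of the stria, held 153 CPM (140 to 167) and 176 CPM (161 to 192), in 17.8% and 22.6% of nuclei. Root nuclei held 1 UMI in MethFix, which is 4.53 CPM (0.115 to 25.2), and 2 UMIs in RNAlater, which is 7.94 CPM (0.961 to 28.7). Basal nuclei, taken as a class with little of the gene, had 5.70 and 8.13 CPM in 0.535% and 0.828% of nuclei (median depth 2496 and 3403 UMIs, against 2753 and 3402 in root nuclei), and the root intervals contained these values. With every nucleus thinned to 1000 UMIs the shares were 48.9% of 90 and 47.2% of 53 spindle nuclei, against 10.2% and 13.8% of intermediate nuclei, so the higher share went with the lower depth (median 2432 and 3333 UMIs in spindle and 4030 and 5446 UMIs in intermediate nuclei). Schwann cell nuclei came next after spindle nuclei, at 697 CPM (413 to 1102) and 440.3 CPM (246 to 726), but those values came from 4 and 2 nuclei.

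Within the spindle class Kcnq5 was unevenly spread. A spindle nucleus held a median of 2 UMIs in both datasets and at most 52 in MethFix and 62 in RNAlater, and the 10 highest nuclei held 47.4% and 71.3% of its UMIs. Sub-clustering, made without any channel gene, set apart a group of 22 MethFix and 18 RNAlater nuclei (16 barcodes in both), named here by Pex5l after its values were seen. In that group Kcnq5 was 35.0 CPM (4.24 to 127), with UMIs in 1 nucleus, in MethFix and 70.5 CPM (19.2 to 180), in 2 nuclei, in RNAlater. The remaining 75 and 37 spindle nuclei held 3366 CPM (3116 to 3631) and 3252 CPM (2957 to 3569), in 78.7% and 78.4% of nuclei. On the log2 scale the remaining nuclei exceeded the Pex5l-rich group by 6.59 (4.73 to 9.64) and 5.53 (4.16 to 7.41).

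Dpp10 differed far less between these nuclei. It was 1698 CPM (1377 to 2072) in the Pex5l-rich group against 2234 CPM (2031 to 2452) in the remaining MethFix nuclei, and 1973 CPM (1625 to 2374) against 2280 CPM (2034 to 2548) in RNAlater. The log2 ratios were 0.40 (0.08 to 0.73) and 0.21 (-0.11 to 0.53). The Pex5l-rich nuclei had less of the spindle marker Anxa1, 788 against 2928 CPM in MethFix and 775 against 2499 CPM in RNAlater, but kept Il1rapl2, at 1996 against 2214 CPM and 2009 against 2667 CPM. Itgbl1, an integrin-like protein gene, was 5918 against 1977 CPM and 6466 against 1944 CPM. Their depth was alike, with medians of 2454 against 2432 UMIs in MethFix and 3164 against 3539 UMIs in RNAlater. The root marker Lgr5 had 0 UMIs in every spindle group, and Epyc had 19 UMIs in the MethFix Pex5l-rich group, all in 1 nucleus, and 0 in its RNAlater counterpart.

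**Figure D2:**
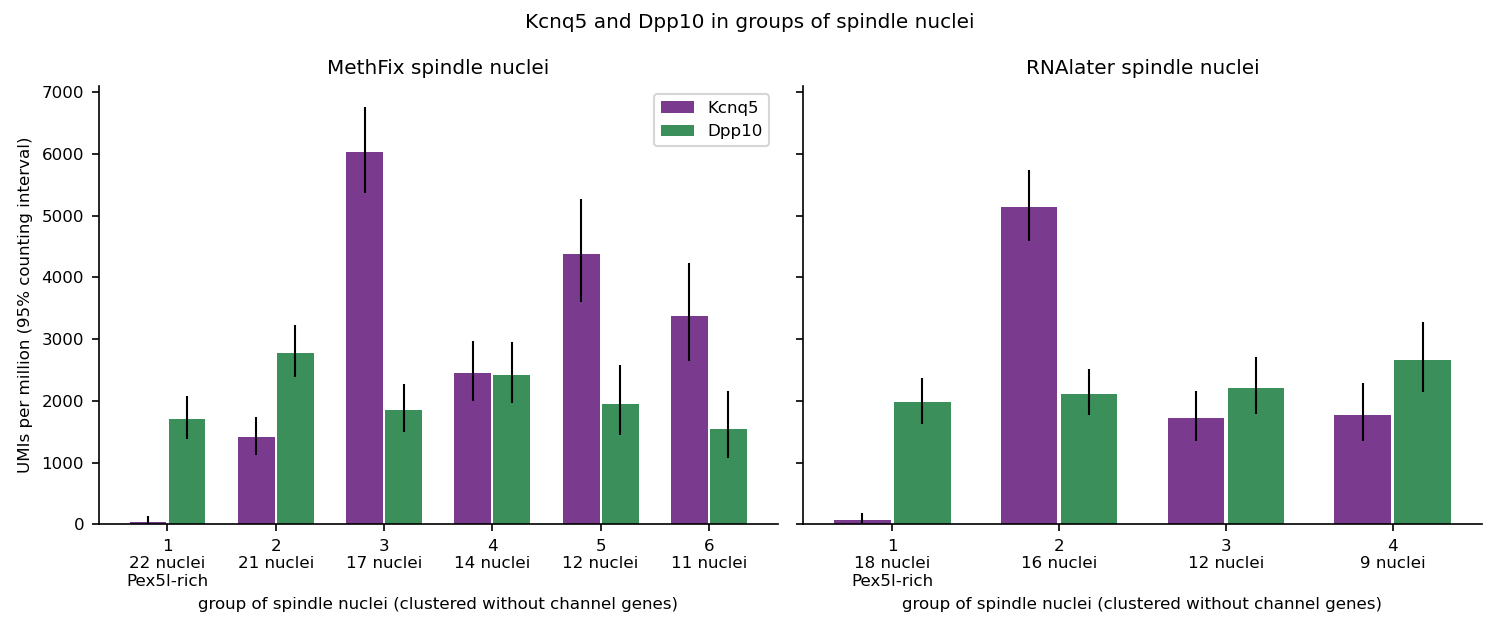
Kcnq5 and Dpp10 (CPM, bars from 0, with exact 95% intervals) in the spindle sub-clusters, 6 in MethFix and 4 in RNAlater, with group 1 the Pex5l-rich nuclei. Kcnq5 ran from 35.0 to 6034 CPM among the MethFix groups, whereas Dpp10 ran from 1548 to 2781 CPM.

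Among the other spindle groups Kcnq5 was highest in MethFix group 3, with 6034 CPM and UMIs in 17 of 17 nuclei, and in RNAlater group 2, with 5135 CPM. The lowest of the others were MethFix group 2, at 1407 CPM, and RNAlater group 3, at 1716 CPM. Unshared spindle nuclei had more Kcnq5 than shared ones in MethFix, 3875 CPM (3433 to 4358) in 39 nuclei against 2134 CPM (1928 to 2356) in 58, and the shared RNAlater nuclei had 2335 CPM. The intervals of the unshared and the shared nuclei did not overlap, but they leave out the spread between nuclei, which was wide for Kcnq5. The sets also differed in make-up, since 20 of the 22 MethFix Pex5l-rich nuclei, nearly without Kcnq5, were shared. Whether this make-up accounts for the gap was not tested. No such gap was seen for Dpp10, at 2147 CPM (1821 to 2514) unshared and 2102 CPM shared in MethFix and 2189 CPM shared in RNAlater.

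Outside spindle nuclei the Kcnq5 of intermediate nuclei differed between clusters. Over the same barcodes, RNAlater cluster 2 (229 barcodes) held 234 CPM counted in MethFix and 240.0 CPM counted in RNAlater, cluster 12 (74 barcodes) held 218 and 228 CPM, and cluster 3 (218 barcodes) held 88.6 and 95.6 CPM. Cluster 3 was thus lowest by either count. Marginal nuclei were at 4.66 and 2.53 CPM.

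Kcnb2 was nearly absent from marginal and spindle nuclei and from root nuclei as classed here, and was high in smaller clusters. The highest level was in a cluster rich in the kinase gene Dgkb and in Ceacam16, at 8053 CPM (7312 to 8848) in 11 of 14 MethFix nuclei and 6938 CPM (6267 to 7662) in 11 of 13 RNAlater nuclei. That cluster scored best for the root markers (4.07 and 4.19, against 4.88 to 5.84 in the clusters classed as root) and was left unnamed because its score was under 0.8 of the highest root score; it had Ceacam16 at 6490.5 and 7169 CPM and Lgr5 at 260.4 and 320.2 CPM, but 0 UMIs of Epyc and Rspo2. These few nuclei held 37.0% and 33.6% of all Kcnb2 UMIs. The unnamed cluster led by Tenm2 followed with 3932 CPM (3537 to 4360) in 35 of 39 nuclei and 3548 CPM (3234 to 3885) in 34 of 41 nuclei. Osteoblast nuclei came after these, at 1591 CPM (1407 to 1792) in 38 of 76 nuclei and 1465 CPM (1281 to 1669) in 27 of 57, and the intervals of these 3 classes did not overlap.

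Kcnb2 was not uniform among osteoblast nuclei. The sub-cluster led by Pde4d and Ptprt held 3259 CPM in 16 MethFix nuclei and 3297 CPM in 10 RNAlater nuclei, and none of those nuclei carried the osteoblast regulator Runx2. The Col1a1-rich sub-cluster, whose leading gene encodes a collagen of bone, held 141 CPM, from 4 UMIs, in 10 MethFix nuclei and 1384 CPM in 12 RNAlater nuclei. Spindle nuclei had 1 and 2 Kcnb2 UMIs, root nuclei 2 and 4 UMIs (9.06 and 15.9 CPM), and marginal nuclei 1.90 and 2.28 CPM. The root level therefore turns on the class limits, since the Dgkb-rich cluster shares Ceacam16 with root nuclei. When root barcodes were picked by UMIs of Ceacam16, Epyc and Lgr5 alone, 76 and 78 barcodes held Kcnb2 at 1511 and 1232 CPM.

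The Kv4 pore genes had few UMIs, carried mostly by the MethFix neuron class and by small unnamed clusters. The RNAlater neuron class, 17 nuclei, held 2 Kcnd2 UMIs and 0 Kcnd3 UMIs. It was made of other nuclei, since of its barcodes kept in both datasets 6 were Schwann cell and 7 Wfdc18-led nuclei in MethFix. Kcnd2 was 1812 CPM (1357 to 2370) in 9 of 14 MethFix nuclei and 3324 CPM (2702 to 4047) in 11 of 14 RNAlater nuclei of the cluster led by Meg3, an imprinted noncoding RNA. In MethFix 341 of the 443 Kcnd2 UMIs, 77.0%, lay in 11 nuclei of the neuron class and the cluster led by Fgf14, at 7012 CPM (6287 to 7797), and 10 of those 11 barcodes were found only in MethFix. In RNAlater the Meg3-led cluster held 71.2% of the 139 Kcnd2 UMIs. The total of 36.8 CPM in MethFix against 13.2 CPM in RNAlater moved with the presence of those 11 nuclei.

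Spindle nuclei held 3 and 2 Kcnd2 UMIs. Root nuclei as classed here held none in either dataset, where 3 counts would have been 13.6 and 11.9 CPM. Root barcodes picked by UMIs of Ceacam16, Epyc and Lgr5 alone, 76 and 78, held 63 and 44 Kcnd2 UMIs, at 250 and 151 CPM. All of those UMIs lay in barcodes outside the root class, in which 55 and 58 of the barcodes fell. RNAlater nuclei outside the Meg3-led cluster held 40 Kcnd2 UMIs in all, fewer than those 44. The Fgf14-led cluster held 38 Ceacam16 UMIs, and the Meg3-led cluster 4 and 5 of Lgr5, so such a pick can take in these Kcnd2-rich nuclei. Kcnd3 had 38 UMIs in all MethFix nuclei and 46 in RNAlater. It was 376 CPM (188 to 673) and 537 CPM (307 to 872) in the Meg3-led cluster and 599 CPM (299 to 1072), from 11 UMIs, in the 6 neuron nuclei of MethFix, and had 8 and 7 UMIs in the Tenm2-led cluster. Kcnd3 had 0 UMIs in spindle nuclei (a limit of 11.7 and 15.5 CPM by 3 counts) and 0 in root nuclei, so it was not detectable there at this depth.

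Dpp10, one of the Kv4 partner genes, was shared by spindle and marginal nuclei. In MethFix the far more numerous marginal nuclei held 65.6% of its UMIs and spindle nuclei 28.6%. By in situ hybridisation the study saw Dpp10 RNA in spindle cells and reported none in other regions of the cochlea. Spindle nuclei held 2114 CPM (1940 to 2300) in MethFix and 2190.1 CPM (1987 to 2409) in RNAlater, with UMIs in 80 of 97 nuclei, 82.5% (73.4 to 89.4), and 49 of 55 nuclei, 89.1% (77.8 to 95.9). Marginal nuclei, the cells that face the endolymph, held 262 CPM (248 to 277) and 256 CPM (241 to 273), in 38.0% and 42.6% of nuclei. Reissner's membrane nuclei were at 20.2 and 22.4 CPM, basal nuclei at 5.70 and 7.68 CPM and intermediate nuclei at 3.26 and 4.57 CPM. Root nuclei had 0 Dpp10 UMIs in both datasets, where 3 counts would have been 13.6 and 11.9 CPM and 3 nuclei with a UMI 4.17% and 4.35%, limits on detection and not on the share of nuclei that express the gene. After thinning to 1000 UMIs the shares were 70.0% and 64.2% of spindle nuclei and 19.8% and 15.0% of marginal nuclei.

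**Figure D3:**
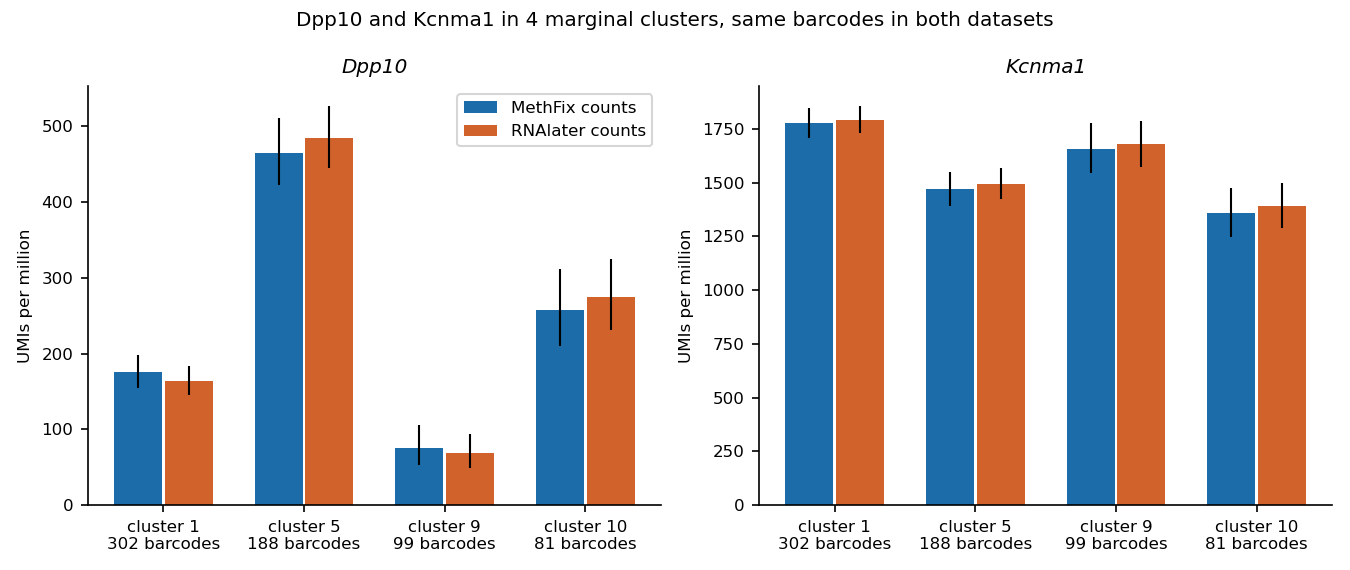
Dpp10 and Kcnma1 (CPM, with exact 95% intervals) in the 4 marginal clusters of RNAlater, 1, 5, 9 and 10, counted over the same 302, 188, 99 and 81 barcodes in MethFix and in RNAlater. Dpp10 was highest in cluster 5 by either count, at 465 and 484 CPM, and lowest in cluster 9.

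Marginal nuclei differed in Dpp10 among themselves. Over the same barcodes, cluster 5 held 465 CPM (422 to 511) by MethFix counts and 484 CPM (444 to 527) by RNAlater counts. Cluster 10 held 257 CPM (211 to 311) and 275 CPM (231 to 325), cluster 1 held 175 CPM (154 to 198) and 164 CPM (145 to 184), and cluster 9 held 75.8 CPM (53.1 to 105) and 68.1 CPM (48.5 to 93.1). No neighbours in this order overlapped. These clusters were drawn on RNAlater counts, and the marginal clusters that MethFix formed by itself, 2, 4 and 5, were more alike, at 269, 242 and 260 CPM. Dpp10 was not among the genes used for clustering.

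Dpp6, the paralogue of Dpp10, stood in other cells. Reissner's membrane, the epithelial sheet that bounds the endolymph above, held 338 CPM (283 to 401) in 81 of 155 MethFix nuclei and 583 CPM (518 to 655) in 112 of 156 RNAlater nuclei, and thinned shares were 29.5% and 39.4%. The MethFix and RNAlater intervals did not overlap, and neither did they over the 143 barcodes of that RNAlater class kept in both (142 of them in the class in MethFix too), with 129 UMIs, 350.4 CPM (293 to 416), in MethFix and 283 UMIs, 594 CPM (527 to 667), in RNAlater. The Meg3-led cluster held 55 and 77 Dpp6 UMIs (1880.3 and 2585 CPM) and the MethFix neuron class 89 UMIs (4848 CPM). Dpp6 was thus higher in these small groups than in Reissner's membrane. Spindle nuclei held 2 and 3 UMIs and root nuclei 0 and 2. Barcodes picked by marker UMIs alone held 11 and 13 for spindle and 25 and 18 for root.

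The Reissner's membrane sub-clusters carried Dpp6 at levels from 145 CPM (58.3 to 299) to 418 CPM (294 to 576) in MethFix and from 378 CPM (249 to 551) to 940.0 CPM (548 to 1505) in RNAlater. In both datasets the gene was present in every sub-cluster. In each dataset the intervals of the lowest and the highest group overlapped narrowly.

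Kcnip4, the calcium-binding partner of Kv4 pores, was the only member called higher in root nuclei than in all others, and was detected in a minority of them. Root nuclei held 227 CPM (168 to 299), in 13 of 72 nuclei, in MethFix and 230.2 CPM (175 to 298), in 13 of 69, in RNAlater, which is 18.1% and 18.8% of nuclei. The 10 highest root nuclei held 94.0% and 94.8% of these UMIs, and a single nucleus held up to 24 and 26. Thinned to 1000 UMIs, 7.58% and 12.3% of root nuclei had a UMI. Spindle nuclei were at 11.7 and 20.7 CPM, from 3 and 4 UMIs, and marginal nuclei at 18.4 and 27.4 CPM, in 4.44% and 10.5% of nuclei. Over shared barcodes alone root nuclei were at 234 and 231 CPM, and the 4 unshared MethFix root nuclei had none.

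The groups of root nuclei highest in Kcnip4 were rich in Ceacam16 or Epyc, but their levels rest on few nuclei, and a link to these markers was not tested. In MethFix, root group 2 (18 nuclei, with Ceacam16 at 6609 CPM, Epyc at 1554 CPM and Lgr5 at 79.0 CPM) held 35 of the Kcnip4 UMIs, 922 CPM (642 to 1282), in 6 nuclei, and the other groups were at 194 CPM or lower. Of those 35 UMIs, 24 came from a single nucleus. In RNAlater, group 2 (12 nuclei, Epyc 1781 CPM) held 600.0 CPM (410 to 847) and group 4 (11 nuclei, Ceacam16 9549 CPM) held 436 CPM (200 to 828), and the other groups were at 140 CPM or lower. Of the UMIs in RNAlater group 2, 26 came from a single nucleus. MethFix group 2 shared 11 barcodes with RNAlater group 4 and 4 with group 2, whereas 8 barcodes of RNAlater group 2, the highest there, came from MethFix group 4, at 61.1 CPM.

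**Figure D4:**
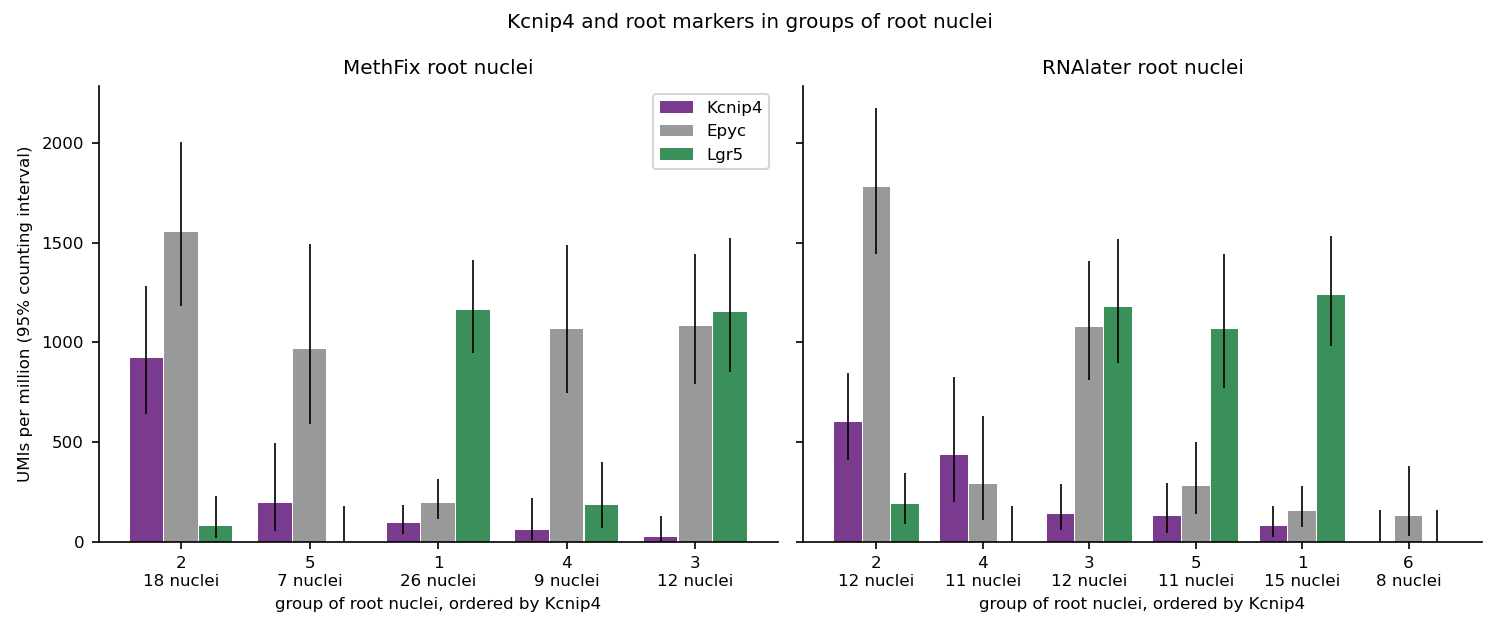
Kcnip4, Epyc and Lgr5 (CPM, with exact 95% intervals) in the sub-clusters of root nuclei of each dataset, ordered by Kcnip4. The group with the highest Kcnip4 in MethFix, 922 CPM, had Lgr5 at 79.0 CPM, below the 720 CPM of all MethFix root nuclei. A single nucleus of that group held 24 of the 50 Kcnip4 UMIs of MethFix root nuclei.

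In MethFix, but not in RNAlater, much of the Kcnip4 outside root nuclei lay in clusters that also held Kcnd2. In MethFix 457 of its 713 UMIs, 64.1%, came from the same 11 nuclei of the neuron class and the Fgf14-led cluster, and the Meg3-led cluster was at 1778 CPM in MethFix and 705 CPM in RNAlater. In RNAlater the Meg3-led cluster held 21 of the 265 Kcnip4 UMIs, 7.92%. Marginal clusters 1 and 5 of RNAlater held 48 and 32 over the barcodes kept in both datasets, with 2 and 6 Kcnd2 UMIs. The Dgkb-rich cluster, with 0 Kcnd2 UMIs in either dataset, held 12 Kcnip4 UMIs (223 CPM) in MethFix and 25 (445 CPM) in RNAlater.

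Parts of a Kv4 complex were rarely found in the same nucleus in spindle, marginal and Reissner's membrane nuclei, where the pore genes were rarely detected at all. Kcnd2 had 0 UMIs in 94 of 97 MethFix and 53 of 55 RNAlater spindle nuclei, and Kcnd3 had none in any spindle nucleus. Few spindle nuclei could therefore show both parts, and those with Kcnd2 all had a UMI of Dpp6 or Dpp10. Of the spindle nuclei with Dpp6 or Dpp10, 77 of 80 in MethFix and 47 of 49 in RNAlater had no UMI of Kcnd2 or Kcnd3. The same held for 435 of 437 and 289 of 304 marginal nuclei and for 82 of 83 and 110 of 113 Reissner's membrane nuclei. A pore gene, a Dpp gene and Kcnip4 were found together in no spindle nucleus, and in 5 of 6 neuron nuclei and 5 of 5 Fgf14-led nuclei of MethFix. In the Meg3-led cluster a pore gene and a Dpp gene were found together in 5 of 14 MethFix and 9 of 14 RNAlater nuclei, and all 3 parts in 1 nucleus of each. A nucleus without a UMI may still express the gene at this depth. Kcnq5 and Dpp10 were both detected in 50 of 97 (51.5%) and 30 of 55 (54.5%) spindle nuclei, and in 9 of 1104 and 4 of 673 marginal nuclei.

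Most Kcnma1 UMIs lay in marginal nuclei. These held 1571 CPM (1536 to 1608) in MethFix and 1638 CPM (1598 to 1678) in RNAlater, which was 91.5% and 92.7% of all its UMIs, and 88.1% and 94.7% of marginal nuclei had a UMI (68.7% and 70.3% when thinned). Hair cell nuclei, in which BK channels carry a fast potassium current, were few but all positive, at 1580 CPM in 8 of 8 and 2838 CPM in 9 of 9 nuclei. A single RNAlater nucleus gave 53 of the 94 hair cell UMIs, and over the 8 hair cell barcodes kept in both the RNAlater level was 1626 CPM. The Meg3-led cluster held 1026 CPM in MethFix and 1578 CPM (1160 to 2099) in RNAlater, where its interval overlapped that of marginal nuclei. Intermediate nuclei were at 75.1 and 80.1 CPM and osteoblast nuclei at 430 CPM (337 to 541) and 233 CPM (163 to 323). Spindle nuclei held 1 UMI in each dataset. Shared marginal nuclei of MethFix had 1630 CPM and the 334 unshared ones 1301 CPM (1226 to 1381).

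Marginal clusters differed less in Kcnma1 than in Dpp10. Over the same barcodes, clusters 1, 5, 9 and 10 of RNAlater held 1792, 1494, 1677 and 1392 CPM by RNAlater counts and 1776, 1469, 1658 and 1356 CPM by MethFix counts. Cluster 5, highest in Dpp10, was the third in Kcnma1. Root nuclei held 13 UMIs, 58.9 CPM (31.4 to 101), and 19 UMIs, 75.4 CPM (45.4 to 118), and 13 of the 19 RNAlater UMIs lay in cluster 24, at 531 CPM (283 to 908), against 26.4 CPM in the other root cluster.

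Kcnk2 was found mostly in the Tenm2-led cluster and, in MethFix, in a few nuclei of the osteoblast class. The Tenm2-led cluster held 983 CPM (791 to 1208), in 12 of 39 nuclei, and 1907 CPM (1679 to 2158), in 16 of 41 nuclei. Osteoblast nuclei held 121 UMIs, 713 CPM (592 to 852), in 5 of 76 MethFix nuclei, and 0 UMIs in 57 RNAlater nuclei, where 3 counts would have been 19.5 CPM. Of the 5 positive MethFix nuclei 4, with 119 of the 121 UMIs, lay in the Tenm2-led cluster in RNAlater. Each of the 4 had more Kcnk2 in RNAlater, at 27, 38, 22 and 56 UMIs against 21, 29, 19 and 50, and together they gave 143 of the 251 UMIs of that cluster, 57.0%. Spindle and root nuclei had 0 UMIs in both datasets.

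Kcnk2 was thus carried by a handful of nuclei, some of them with Actn2. In RNAlater the group of 5 nuclei led by Cdh13 and Actn2, the latter encoding an actin cross-linker of muscle, held 225 UMIs, 7580 CPM, and in MethFix the osteoblast sub-cluster of 6 nuclei with Actn2 held 5605 CPM (4651 to 6698). A single MethFix nucleus of the Tenm2-led cluster held 67 of its 90 UMIs.

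Spindle and root nuclei were set side by side for all genes with at least 20 UMIs over both classes in each dataset, and a gene was called when the ratio passed 4-fold in the same direction in both datasets provided that the higher class had 20 UMIs or more. Of 4050 genes 3.56% were called higher in spindle nuclei and 3.7% higher in root nuclei, and 3 of the 9 members had enough UMIs to enter. These values served to choose the members, so nothing is read from the counts. Kcnq5 was higher in spindle nuclei with log2 ratios of 9.18 (6.69 to 14.48) and 8.19 (6.33 to 11.24), in MethFix and RNAlater respectively, Dpp10 by at least 156-fold and 184-fold against a floor of 3 counts per class, and Kcnip4 lower by log2 ratios of -4.27 (-6.60 to -2.64) and -3.48 (-5.40 to -2.05). Just outside the UMI minimum was Kcnma1, with 1 UMI in spindle against 13 in root nuclei and 1 against 19 (log2 ratio -3.91, -9.32 to -1.18, and -3.87). Barcodes picked by marker UMIs alone, 127 and 95 for spindle, of which 78 and 47 were in the spindle class, gave 1373 and 1044 CPM of Kcnq5, 1066 and 976 CPM of Dpp10 and 328 and 364 CPM of Kcnma1.

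Against all other nuclei, Kcnq5 was 48.9-fold and 42.6-fold higher in spindle nuclei and Dpp10 18.5-fold and 21.3-fold higher, where 1.16% of 13476 genes were called higher and 2.78% lower. Kcnma1 (log2 ratio -7.46 and -7.03) and Kcnb2 (-4.67 and -3.44) were called lower. The Kcnma1 call turns on the class limits. Spindle barcodes picked by marker UMIs alone held 328 and 364 CPM, less than 4-fold below the 674 and 661 CPM of all nuclei. Kcnb2 stayed low in them, at 9.11 and 5.02 CPM. Dpp6 (-2.02 and -1.43), Kcnd2 (-1.67 and -0.36) and Kcnip4 (-2.36 and -0.29) did not pass 4-fold in both. In root nuclei against all others 1.57% of genes were called higher and 3.41% lower. Kcnip4 was higher there, by 4.04-fold and 11.5-fold, a call lost with TMM factors, and its all-other level in MethFix includes the 11 nuclei of the neuron class and the Fgf14-led cluster. A single root nucleus held 24 of its 50 root UMIs in MethFix and 26 of 58 in RNAlater. Kcnq5 (log2 ratio -4.60 and -3.63), Dpp10 (at least 11.8-fold and 12.2-fold), Kcnb2 (-3.45 and -2.82) and Kcnma1 (-3.54 and -3.16) were called lower. With the Dgkb-rich cluster counted as root, Kcnb2 was called higher instead. In MethFix, root barcodes picked by marker UMIs alone held Kcnq5 at 43.7 CPM and Kcnma1 at 250 CPM. All MethFix nuclei held 108 and 674 CPM, so neither was 4-fold lower there. Kcnb2 and Kcnd2 stood above all nuclei in such root barcodes of both datasets, nearly all from barcodes outside the root class. Dpp10 stayed low in them, with 1 and 0 UMIs. Kcnd3 gave no ratio, since with 0 UMIs in both classes the floor of 3 counts was above its level in all other nuclei. Over the remaining members, with 3 counts standing in for 0 UMIs, the median log2 ratio was -1.85 and -0.63 for spindle nuclei. It was -2.45 and -2.62 for root nuclei. Over all tested genes that gave a ratio it was -0.03 and -0.04, and -0.08 and -0.12.

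Of the other 76 listed channel genes 25 had at least 20 UMIs in both datasets. Over those that gave a ratio, the median log2 ratio to all other nuclei was -0.09 and 0.43 in spindle and 0.35 and -0.02 in root nuclei. Of the 25, 5 entered the comparison of spindle with root nuclei and none was called. Kcnq1, the pore of the marginal cell current, came to 547 CPM in spindle against 231 CPM in root nuclei in MethFix and 537 against 246 CPM in RNAlater. Kcnk5, the tandem pore domain channel TASK-2, was called higher in both classes against all others, at 148 and 150 CPM in spindle nuclei (log2 ratio 3.86 and 3.45) and 149 and 151 CPM in root nuclei (3.81 and 3.55). It therefore did not separate the classes, with log2 ratios of -0.01 and -0.01 between them. Kcnab1 and Kcne1, auxiliary subunits, and Kcnn4, a calcium-activated channel, were called lower in spindle nuclei (Kcnab1 -3.75 and -3.23, Kcne1 -2.16 and -2.04, Kcnn4 at least 5.47-fold in MethFix and -3.47 in RNAlater) and in root nuclei, where Kcnq1 was also lower (-2.54 and -2.41).

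The genes whose levels ran most like each member were found by Pearson's r of log2(CPM + 10) over 28 points, the 14 classes of each dataset, among 11467 genes. The points share nuclei between datasets, so r is a description. Kcnq5 ran most like Mgst1 (0.79), Hpse2 (0.78) and Dsel (0.70), and Dpp10 like A330102I10Rik (0.83), Macc1 (0.80) and Krt80 (0.79). Kcnq5 and Dpp10 had r = 0.51 with each other. Kcnb2 ran most like Kcnq3 (0.91), a channel gene of the same list that stood highest in the Dgkb-rich cluster at 1488 and 1797 CPM, then Rerg (0.90) and Mark1 (0.90). Kcnd3 had r = 0.94 with Kcnd2, as with A330076H08Rik and Csmd1, and Kcnd2 had 0.94 with Fam155a and 0.91 with the glutamate receptor gene Gria2. Dpp6 ran like Brinp3 (0.93), Lgi1 (0.92) and Irak1bp1 (0.92), and like Dpp10 only with r = 0.34. Kcnma1 ran like Esrrg (0.85), Angpt1 (0.81) and Frmd5 (0.78), Kcnip4 like Spock1 (0.87), and Kcnk2 like Cdh13 (0.86), Cdh6 (0.83) and Prrx1 (0.83).

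**Figure D5:**
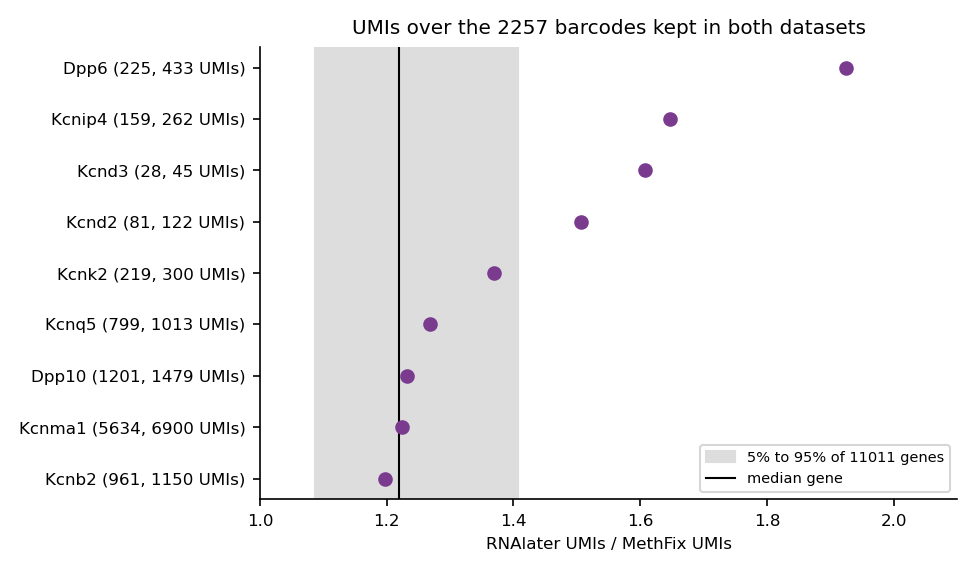
Ratio of RNAlater to MethFix UMIs of each of the 9 genes over the 2257 barcodes kept in both datasets. The line is the median, 1.22, of the 11011 genes with at least 50 MethFix UMIs there. The grey band is their 5th to 95th percentiles, 1.09 to 1.41. Dpp6, Kcnip4, Kcnd3 and Kcnd2 lay above the band, but Kcnd3, with 28 MethFix UMIs, was below that minimum.

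Over the 2257 barcodes kept in both datasets, each member had more UMIs in RNAlater than in MethFix, but not by the same factor. Dpp6 rose from 225 to 433 UMIs, a ratio of 1.92, Kcnip4 from 159 to 262 (1.65), Kcnd3 from 28 to 45 (1.61) and Kcnd2 from 81 to 122 (1.51). The median of the 11011 genes with at least 50 MethFix UMIs in these barcodes was 1.22, with 5th and 95th percentiles of 1.09 and 1.41. Kcnd3 was below that minimum, so its ratio is set against genes with more counts. Kcnk2 was within that band at 1.37, and Kcnq5 (1.27), Dpp10 (1.23), Kcnma1 (1.22) and Kcnb2 (1.20) were close to the median. The ratio of Dpp6 was above that of 99.5% of genes, and over the 143 Reissner's membrane barcodes kept in both its UMIs rose from 129 to 283. What set these ratios was not tested.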

How the data were processed

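The authors aligned the reads of both droplet libraries with Cell Ranger 3.0.1 to a GRCm38 (mm10) reference and deposited raw UMI counts per gene and barcode; the submitters' processing notes also list Scanpy 1.4.5. The counts were used as deposited. Genes seen in 3 or more nuclei were kept, as were nuclei with 200 genes or more, no more than 8000 UMIs and no more than 10% mitochondrial UMIs, and likely doublets (Scrublet, expected rate 0.1: 227 MethFix and 18 RNAlater nuclei) were removed. Nuclei were clustered with scanpy 1.11.5 and leidenalg 0.10.2 (Python 3.11.15, 4000 variable genes, 30 components, 10 neighbours, resolution 1 for MethFix and 1.5 for RNAlater), leaving the listed channel genes and the spindle and root markers out of the variable genes. A cluster took the name of the class with the highest score among those of 17 classes that had at least 3 markers detected, a score of at least 2.5 (mean log2 excess of the markers over the 25th percentile of clusters) and at least 0.8 of the best score that class reached in any cluster, with a margin of 0.1 over the next such class. A class with a higher score could fail the last limit, as fibrocyte did in the RNAlater cluster named neuron. Fibrocyte also did so in a MethFix cluster of 216 nuclei named basal, which scored 3.67 for fibrocyte and 3.24 for basal. Before naming, clusters with at least 3 class scores of 2.5 or more and none of 4 or more were clustered again by themselves. The neuron, Schwann cell, Meg3-led and Fgf14-led clusters are such parts, which kept a name only with a class marker among their 10 leading genes. After naming, spindle, root, Reissner's membrane, osteoblast and Tenm2-led nuclei were clustered again. Both steps used 2000 variable genes, 10 components and resolution 1. Counts were summed per class, and shares were also taken after thinning each nucleus to 1000 UMIs. Poisson (levels), Clopper-Pearson (shares) and conditional binomial (ratios) intervals were computed with scipy 1.17.1, and TMM factors with edgeR 4.0.16 as an alternative. For ratios, 3 counts stood in for a class without any UMI. With 1 library per preparation no p-value was computed. The text names the 9 members, the other listed genes that passed 4-fold in a comparison, and the 3 genes most like each member with at least 50 UMIs in each library; clusters and other genes were named after their values were seen. Members, lists, the naming rule and the splits were chosen with earlier results of these data known. The scripts were tested on simulated data. Gene IDs of 48349 of 48816 features (99.0%) matched GENCODE M21 without the version. One alternative of the comparison of listed genes is not reported here.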

Additional observations from a re-analysis of the deposited data

Results flagged for a closer look

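A pair of a member and a class was flagged when its log2 ratio to all other nuclei had opposite signs in the datasets. The counting intervals of both ratios also had to exclude 0. Pairs that differed in direction without meeting this, such as Kcnq5 in macrophage nuclei, were not flagged. Of 126 pairs, 1 was flagged. Kcnk2 in osteoblast nuclei was 713 CPM against 9.34 CPM in all other MethFix nuclei, and 0 UMIs (a limit of 19.5 CPM by 3 counts) against 28.9 CPM in RNAlater. The difference between the datasets was not tested. It came with the placing of 4 barcodes, which held 119 of the 121 MethFix UMIs and lay in the Tenm2-led cluster in RNAlater.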

How the results depend on the processing

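Each count of members or listed genes past 4-fold was recomputed under each alternative, and 53 of 60 values stayed within 1.5 times the reported count. These counts join both directions and take no account of which genes were called. Of the log2 ratios 101 values moved by less than the counting interval and 11 by more, and of the shares of nuclei 20 by less and 16 by more. Of the 5 members called in root nuclei against all others, 3 were called with no upper limit on UMIs and 1 in MethFix without shared barcodes, where 4 root nuclei were left. Of the members, 3 were called between spindle and root nuclei, and 5 with classes set by marker UMIs, which adds Kcnb2 and Kcnd2, both lower in spindle than in root barcodes. No other listed gene was called between spindle and root nuclei as reported, but 1 (Kcnq3) was with classes set by marker UMIs, 2 (Kcnn2 and Kcnq1) at a fold of 2, and 1 (Kcnq3) with the Dgkb-rich cluster counted as root, an alternative chosen after seeing the data. Counting that cluster as root also turned Kcnb2 from lower to higher in root nuclei, and TMM factors lost the Kcnip4 call there. Kcnq5 and Dpp10 were called higher in spindle nuclei under every alternative run. Their log2 ratios to root nuclei ran from 3.26 to 9.31 and from 2.41 to 8.87 in MethFix. In RNAlater they ran from 4.25 to 8.48 and from 6.19 to 9.11. The lowest MethFix values came without shared barcodes, where 3 counts stood in for 0 UMIs in 4 root nuclei, so they are lower bounds. The log2 ratio of Kcnma1 to root nuclei, which was not called, changed sign with classes set by marker UMIs (0.39 and 1.56). No paired test of samples was possible because each preparation was a single library and the libraries share barcodes. For the same reason no library could be left out. The shared barcodes were set side by side as a description only.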

Other observations

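Several listed channel genes that are no members stood highest in a class the comparisons did not use. Kcnq1 was 3089 CPM in MethFix marginal nuclei, which held 91.5% of its UMIs. Kcnn4 was 201 and 192 CPM in intermediate nuclei, Kcnab1 113 and 110.2 CPM in marginal nuclei, Kcnn2 389 and 396 CPM in fibrocyte nuclei, Kcnk13 444 and 327 CPM in macrophage nuclei and Kcnt2 165 and 143 CPM in osteoblast nuclei, in MethFix and RNAlater. Of the 25 listed genes with at least 20 UMIs in both datasets, 14 had the same leading class in both.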
